A study of Mus musculus with 6 samples.

Results

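The Serpina3 genes form a tandem cluster of serpin paralogs on mouse chromosome 12, and 8 of them were followed in liver endothelial cells of young and aged mice. The 8 genes, Serpina3c, Serpina3f, Serpina3g, Serpina3h, Serpina3i, Serpina3k, Serpina3m and Serpina3n, were taken by name from 24421 gene rows of the read count table. They were chosen on the age contrast of these same libraries. Their age differences are therefore a description, and nothing is read from the p of a single gene. The cells were CD31+CD45- cells sorted by flow cytometry from livers of wild-type female C57BL/6J mice. The young group held 3 samples from 10-week-old mice, and the aged group held 3 samples from mice of 127, 131 and 136 weeks. Age was the only factor that the labels gave as different between the groups, and the methods call the samples of a group independent.

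Serpins are suicide substrates of proteases. An exposed reactive centre loop near the carboxyl end is cut by the target enzyme, which is then trapped, and the residues of this loop set which enzymes are inhibited. In the mouse the single human gene for antichymotrypsin corresponds to a family of duplicated Serpina3 genes whose loops have diverged. Serpina3k and Serpina3m encode contrapsin-like proteins that hepatocytes secrete into plasma, Serpina3n encodes a secreted acute-phase inhibitor of serine proteases such as granzyme B, cathepsin G and elastase, and Serpina3g encodes an intracellular inhibitor of cysteine cathepsins that interferons and other cytokines induce.

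The sequences of the loop are shown because they are where the paralogs differ in what they can bind. A coding stretch around the reactive centre loop was read from the mm9 genome for 7 of the 8 genes. No such stretch was found for Serpina3h, which GENCODE annotates as a processed transcript. The first 26 bases, in lower case, code for the hinge of the loop, the capitals mark the variable part up to the next conserved bases, and all stretches lie inside 1 coding exon and are written 5′ to 3′ on the coding strand.
Serpina3c (chr12:105385513-105385597, minus strand): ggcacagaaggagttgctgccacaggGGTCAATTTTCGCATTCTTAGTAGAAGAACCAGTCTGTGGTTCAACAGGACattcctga
Serpina3f (chr12:105458455-105458551, plus strand): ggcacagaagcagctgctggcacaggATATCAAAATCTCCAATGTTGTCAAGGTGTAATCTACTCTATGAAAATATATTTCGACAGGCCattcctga
Serpina3g (chr12:105479282-105479375, plus strand): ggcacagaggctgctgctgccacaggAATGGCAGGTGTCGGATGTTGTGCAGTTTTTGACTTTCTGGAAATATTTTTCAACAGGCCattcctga
Serpina3i (chr12:105506690-105506783, plus strand): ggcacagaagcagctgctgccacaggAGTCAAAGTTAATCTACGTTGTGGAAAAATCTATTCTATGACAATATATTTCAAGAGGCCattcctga
Serpina3k (chr12:105583479-105583566, plus strand): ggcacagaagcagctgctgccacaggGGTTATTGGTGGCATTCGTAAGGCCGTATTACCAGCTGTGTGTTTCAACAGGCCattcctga
Serpina3m (chr12:105631979-105632072, plus strand): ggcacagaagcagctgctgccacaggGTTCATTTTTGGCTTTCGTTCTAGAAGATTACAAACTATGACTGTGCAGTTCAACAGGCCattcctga
Serpina3n (chr12:105651658-105651751, plus strand): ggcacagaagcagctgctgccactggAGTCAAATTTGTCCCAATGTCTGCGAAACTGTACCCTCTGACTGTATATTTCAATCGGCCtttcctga

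Over the 21 pairs of these 7 genes, the first 26 bases were 84.6% to 100% identical with a median of 92.3%. The capital part, 51 to 63 bases long, was 51.6% to 70.3% identical with a median of 58.3%. The hinge was thus nearly common to the 7 genes, and the loop beside it differed in every pair.

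The rest of the transcripts was compared in stretches of 75 bases, the read length of the libraries. Of the 75-base stretches of each gene, between 0.327% (Serpina3c) and 12.9% (Serpina3h) occurred without a mismatch in another Serpina3 gene. With up to 2 mismatches allowed, the share ran from 8.34% in Serpina3n to 44.5% in Serpina3i, and it was 30.0% in Serpina3g, 37.6% in Serpina3h, 23% in Serpina3f, 26.5% in Serpina3k and 29.2% in Serpina3m. In both measures the genes searched included the pseudogenes Serpina3d-ps, Serpina3e-ps and Serpina3l-ps. With up to 2 mismatches, 19.6% of the stretches of Serpina3i and 3.92% of those of Serpina3n occurred in Serpina3e-ps. Sharing was greatest inside 2 groups of genes. Serpina3f, Serpina3g, Serpina3h and Serpina3i shared stretches with one another, and 31% of the stretches of Serpina3h occurred in Serpina3i. Serpina3k shared 24.3% of its stretches with Serpina3m. How the authors' counting placed reads that fit more than 1 of these genes is not given in the sources used here, so the counts of the closest paralogs carry this uncertainty, and most of all those of Serpina3h and Serpina3i.

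**Figure D1:**
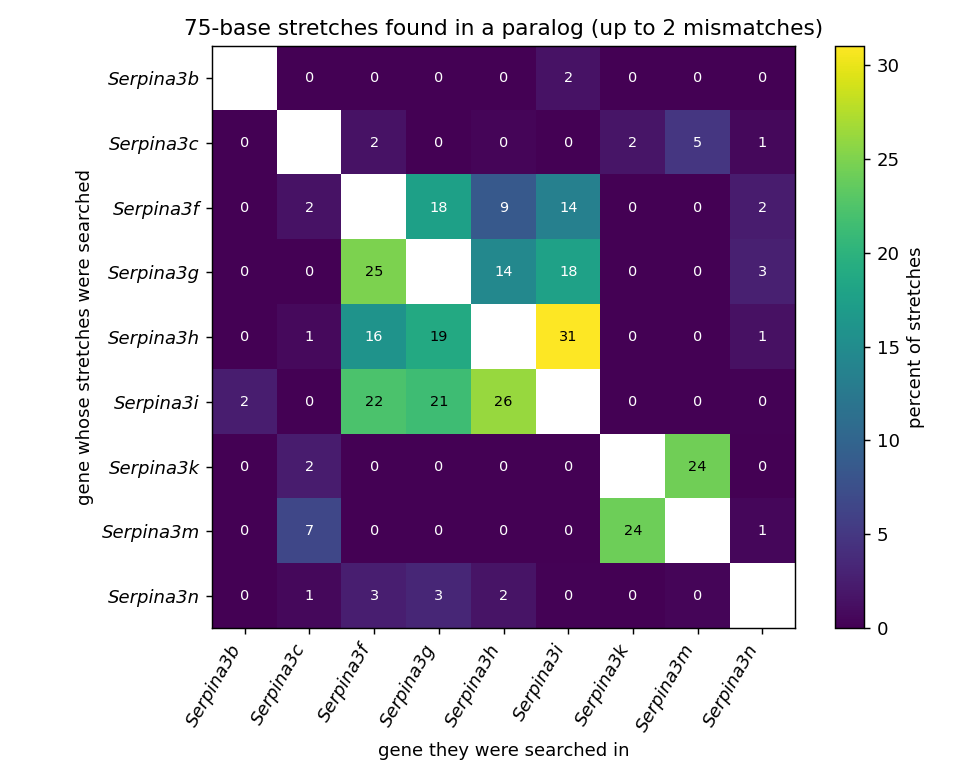
Percent of the 75-base stretches of the transcripts of each gene (vertical axis) that occur with up to 2 mismatches in another Serpina3 gene (horizontal axis). Colour and number both give the percent, and the pseudogenes, Serpina3a and Serpina3j are not shown. Serpina3f to Serpina3i form one block of shared sequence and Serpina3k with Serpina3m a separate one, while Serpina3n stands nearly alone.

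The promoters were shown to compare the sequence upstream of the genes that are highest in these cells with that of their neighbours. RefSeq promoters of 300 bases on GRCm38 were held for 5 of the 8 genes, Serpina3c, Serpina3f, Serpina3g, Serpina3i and Serpina3n. Each was found once by exact match on chromosome 12 of mm9, the only chromosome searched, in its annotated orientation. The coordinates given are those of mm9. An aligned window holds 9 bases, in capitals, that in Serpina3g and Serpina3i read as a palindromic STAT-type element.
Serpina3g (chr12:105474304-105474354, plus strand): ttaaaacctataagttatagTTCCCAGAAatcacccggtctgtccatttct
Serpina3i (chr12:105501210-105501260, plus strand): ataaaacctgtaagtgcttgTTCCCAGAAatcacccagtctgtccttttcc
Serpina3f (chr12:105452613-105452663, plus strand): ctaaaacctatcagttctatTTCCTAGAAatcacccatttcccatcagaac
Serpina3n (chr12:105644775-105644825, plus strand): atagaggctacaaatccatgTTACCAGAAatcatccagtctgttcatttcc
Serpina3c (chr12:105392172-105392222, minus strand): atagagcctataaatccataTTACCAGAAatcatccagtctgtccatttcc

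With positions counted from 1 at the 5′ end of the 9 bases and the base of Serpina3g written first, Serpina3f carried C5T, and Serpina3n and Serpina3c each carried C3A. The pattern TTCNNNGAA, searched on both strands, therefore occurred in the promoters of Serpina3f, Serpina3g and Serpina3i, 3 of the 5 genes, against 8.30% of 32851 mouse promoters of the same length. An NF-kB motif, searched by its consensus on both strands, occurred in Serpina3g and Serpina3i, 2 of the 5, against 8.46% of all promoters, and it did not overlap the STAT-type element. The core of an interferon-stimulated response element, searched by its consensus, and the AP-1 pattern TGANTCA, both on either strand, occurred in none of the 5, against 3.44% and 7.81% of all promoters. The glucocorticoid receptor half-site AGAACA occurred in 4 of the 5, Serpina3c, Serpina3f, Serpina3i and Serpina3n, against 19.0% of all promoters. The C/EBP pattern TTGCNNAA occurred in 1, Serpina3f, against 10.8%, and the TATA pattern TATAAA in 2, Serpina3c and Serpina3f, against 13.6%, all searched on both strands. These matches describe letters in one window, which was chosen after the sequences were seen, and they show neither binding nor use of a site.

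All 6 libraries held between 23001556 and 31651817 counts. In 4 of them the genes Lars2 and Rn45s, which collect ribosomal RNA reads, took 4.68% to 5.53% of the counts, and in the young 3 and 127-week libraries they took 1.29% and 0.960%, so age differences are also given within each kind of library. The endothelial list summed to 22596 to 24384 TMM-normalised CPM (read counts scaled to library size) in the young and 12568 to 18127 in the aged samples. None of its 10 markers was at 0. The 13 leukocyte markers summed to 105.2 to 156.4 CPM in the young samples and to 253.2, 130.6 and 632.1 CPM in the 127-, 131- and 136-week samples. In sorted bulk cells fewer cells of a type and less RNA per cell cannot be told apart.

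Levels of the cluster differed over more than 3 orders of magnitude between its genes. Per transcript length, in FPKM (fragments scaled to transcript length and library size), Serpina3g was the highest in every library, at 264.2, 401.3 and 590.2 FPKM in young samples 1 to 3 and at 363.0, 201.2 and 249.9 FPKM in the 127-, 131- and 136-week samples. By its group mean it ranked 178th of 24346 genes in the young and 316th in the aged samples. It gave 65.6% to 68.7% of the summed FPKM of the cluster in every library of either age. Serpina3f lies next to it on the chromosome and is its closest paralog in 75-base stretches with up to 2 mismatches. Without a mismatch, Serpina3g shared 3.69% of its stretches with Serpina3f, 7.43% with Serpina3h and 5.38% with Serpina3i. Serpina3f gave 17.5% to 26.2% and stood at 82.9, 121.3 and 180.4 FPKM in the young and 100.1, 52.6 and 99.7 FPKM in the aged samples. Both thus kept their place at the top of the cluster in all 6 libraries.

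Serpina3k, the hepatocyte paralog, and Serpina3n, the acute-phase paralog, stood in a different order at the 2 ages. Serpina3k stood at 24.7, 23.5 and 55.8 FPKM in the young samples against 14.0, 25.0 and 24.2 FPKM for Serpina3n. In the aged samples Serpina3k stood at 6.96, 4.45 and 3.35 FPKM and Serpina3n at 72.5, 36.1 and 22.99 FPKM. By rank of the group mean Serpina3k was 2626th in the young and 8290th in the aged samples, and Serpina3n was 3885th and 2079th. In the young samples the pair overlapped, with Serpina3n at 43.4% to 106.3% of the FPKM of Serpina3k, and in each aged sample Serpina3n was higher, at 686.8% to 1041% of it.

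The transcripts of Serpina3h and Serpina3i were low beside those of Serpina3g. Serpina3h stood at 4.01, 5.92 and 7.80 FPKM in the young and 4.65, 1.803 and 1.59 FPKM in the aged samples, and Serpina3i at 3.50, 5.63 and 7.32 FPKM and 5.13, 3.27 and 1.34 FPKM. The ratio of Serpina3h to Serpina3g was 1.32% to 1.52% in the young and 0.635% to 1.28% in the aged samples, all below the young. The ratio of Serpina3i to Serpina3g overlapped, at 1.24% to 1.40% in the young and 0.534% to 1.63% in the aged samples. These genes were chosen on the age contrast, so nothing is read from the separation of the Serpina3h ratio. Serpina3m, the second contrapsin-like gene, was lowest of the genes that passed the filter, at 0.173, 0.420 and 0.258 FPKM and 0.672, 0.232 and 0.322 FPKM. Serpina3c had 2, 0 and 1 counts in the young and 1, 3 and 0 in the aged libraries, at or below a floor of 3 counts in each, which corresponded to 0.0946 to 0.135 CPM. Among the rows of the cluster that are not among the 8, Serpina3a and Serpina3j had 0 counts in all 6 libraries, which allows up to that floor, and Serpina3b had 15, 34 and 83 counts in the young and 39, 22 and 30 in the aged libraries. These floors cover counting error only.

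**Figure D2:**
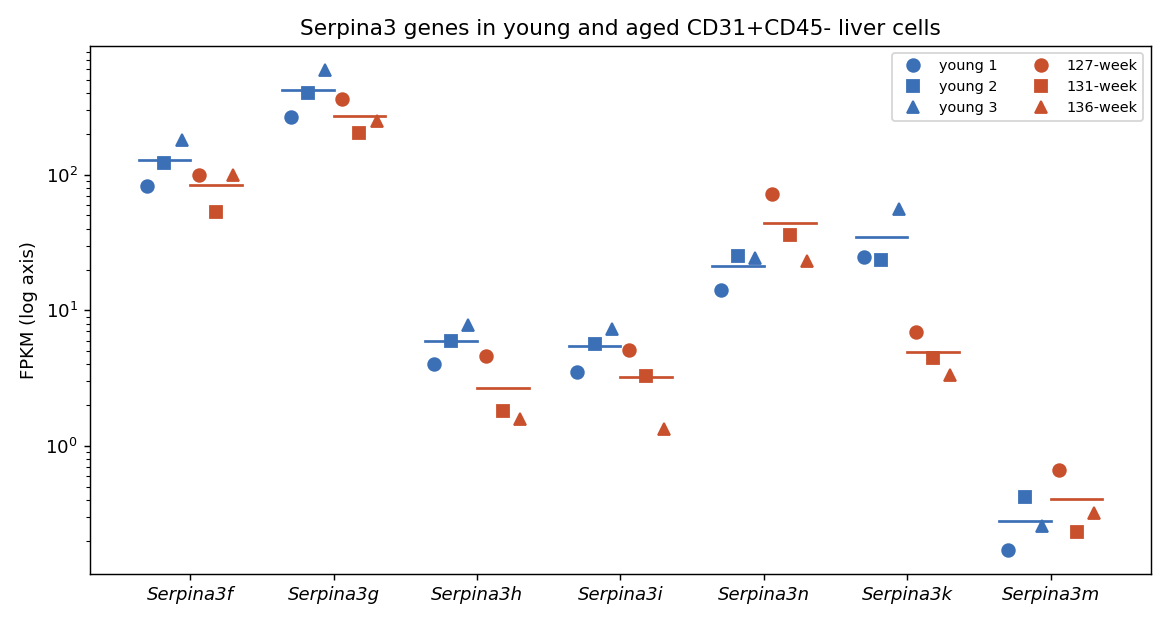
FPKM on a log axis for the 7 genes that passed the filter, with 1 point per library (blue, young 1 to 3; red, 127-, 131- and 136-week) and a line at each group mean. Serpina3g was highest in every library, and the aged points of Serpina3k, at 3.35 to 6.96 FPKM, all lay below its young points, at 23.5 to 55.8 FPKM.

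The age comparison asked how the expression of liver endothelial cells of old mice differs from that of young adults. It was made on read counts with the edgeR quasi-likelihood test over 14612 genes with at least 0.5 CPM in at least 1 library, and 7 of the 8 genes entered it. With a log2 fold change beyond 1 in either direction and a Benjamini-Hochberg adjusted p under 0.05, edgeR called 0 of the 7, and 0.0% of all genes. At an unadjusted p below 0.05, 2 of the 7 and 1847 genes in all passed. With the fold change, Serpina3n passed among the higher genes, where 5.43% of all genes did, and Serpina3k among the lower genes, where 1.19% did. DESeq2 called none of the 7 as higher, where it called 2.70% of all genes, and Serpina3k as lower, where it called 0.541%. Libraries were also simulated repeatedly with the spread that edgeR fitted, with 14205 to 14239 genes tested in each run. Summed over the runs, DESeq2 called 137 unchanged genes and edgeR 31, so these totals are not rates of a single run. Of 300 genes simulated with a 4-fold change, DESeq2 called 267 and edgeR 231. These simulated libraries follow the edgeR model, so they do not decide between the tools here. Since the Serpina3 genes were chosen on this contrast, nothing is read from the counts of those called. The median log2 fold change was -0.62 over the 7 genes and 0.0098 over all 14612.

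Serpina3k, whose product hepatocytes secrete as contrapsin, had the widest age difference of the cluster. It was at 36.99, 35.28 and 81.66 CPM in the young samples and at 10.35, 6.73 and 5.03 CPM in the 127-, 131- and 136-week samples. Every aged sample lay below every young sample, which was so for 8.33% of all genes, whereas no Serpina3 gene had all aged samples above the young, as 9.62% of all genes did. The means were 51.3 ± 26.3 CPM in the young and 7.37 ± 2.71 CPM in the aged (SD, n = 3), and the log2 fold change was -2.80 (SE 0.42), or 6.95-fold lower. Between the libraries rich in Lars2 and Rn45s the log2 difference was -2.62, and between those poor in them it was -2.98. It remained between -3.12 and -2.29 when each library was left out in turn.

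Serpina3n, the secreted acute-phase inhibitor, differed in the other direction. It was at 27.6, 49.7 and 47.7 CPM in the young samples and at 141.1, 71.7 and 45.8 CPM in the aged samples. The groups overlapped: the 127- and 131-week samples were above all young samples, and the 136-week sample lay below young samples 2 and 3. The means were 41.6 ± 12.2 CPM and 86.2 ± 49.3 CPM (SD, n = 3), and the log2 fold change was 1.05 (SE 0.42), or 2.07-fold higher. The value leaned on the 127-week library, since without it the log2 fold change was 0.50. Serpina3n no longer passed the unadjusted threshold without that library, nor without any 1 of the 3 young libraries, where the log2 fold change was 0.83, 1.20 and 1.16, nor with a term for the share of Lars2 and Rn45s (0.93), nor with limma on log2(FPKM + 0.1) or log2(FPKM + 1), where it was 0.94 and 0.91. In those fits 234 to 769 of all genes passed as higher, and nothing is read from the p of Serpina3n. The log2 difference was 0.61 among libraries rich in Lars2 and Rn45s and 1.57 among those poor in them, the pair that holds the 127-week library.

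Serpina3g, the intracellular cathepsin inhibitor, was at 507.4, 770.1 and 1114 CPM in the young samples and at 691.0, 388.9 and 481.4 CPM in the aged samples. The groups overlapped, and the young samples alone spanned more than the distance between the group means of 797 ± 304 and 520.5 ± 155 CPM (SD, n = 3). Its log2 fold change was -0.62 (SE 0.33), and without young sample 3, the highest of the 6, it was -0.30. Its neighbour Serpina3f was at 163.0, 240.7 and 349.9 CPM against 196.5, 104.1 and 196.0 CPM, with a log2 fold change of -0.60 (SE 0.34) that became -0.29 without young sample 3 and -0.36 without the 131-week sample. Among libraries rich and poor in Lars2 and Rn45s the log2 differences were -0.55 and -0.69 for Serpina3g, and -0.43 and -0.83 for Serpina3f. Neither difference was larger than the spread between samples of one age.

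Serpina3h and Serpina3i, which have fewer counts and share the most sequence, also had lower means in the aged group and overlapping samples. Serpina3h was at 7.93, 12.002 and 17.0 CPM against 10.4, 3.77 and 3.21 CPM, with a log2 fold change of -1.08 (SE 0.51). Serpina3i was at 7.85, 13.4 and 17.4 CPM against 12.2, 7.39 and 2.92 CPM, with a log2 fold change of -0.78 (SE 0.52). Both values depended on the 127-week library, without which they were -1.81 and -1.32. In Serpina3i leaving out the 136-week library instead gave -0.39, and leaving out young sample 3 gave -0.50. At the unadjusted threshold of p and fold, which neither passed with edgeR over all 6 libraries, Serpina3h passed as lower in 5 other fits (DESeq2, limma on log2(FPKM + 0.1), the term for the Lars2 and Rn45s share, and without young sample 1 or the 127-week library) and Serpina3i in 1 (without the 127-week library). In those fits 137 to 191 of all genes passed as lower, and nothing is read from the p of either gene. Within libraries rich and poor in Lars2 and Rn45s the log2 differences were -1.51 and -0.70 for Serpina3h, and -1.04 and -0.51 for Serpina3i.

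Serpina3m, the closest relative of Serpina3k, had 7, 14 and 12 counts in the young and 29, 9 and 12 counts in the aged libraries. At 0.261, 0.632 and 0.379 CPM against 0.997, 0.350 and 0.487 CPM, the groups overlapped. Its log2 fold change was 0.54 (SE 0.71), and without the 127-week library, the highest of the 6, it was -0.0056, so the data give it no direction. Within libraries rich and poor in Lars2 and Rn45s its log2 differences were -0.092 and 1.40. The FPKM of Serpina3m was 0.462% to 1.78% of that of Serpina3k in the young and 5.21% to 9.65% in the aged samples.

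**Figure D3:**
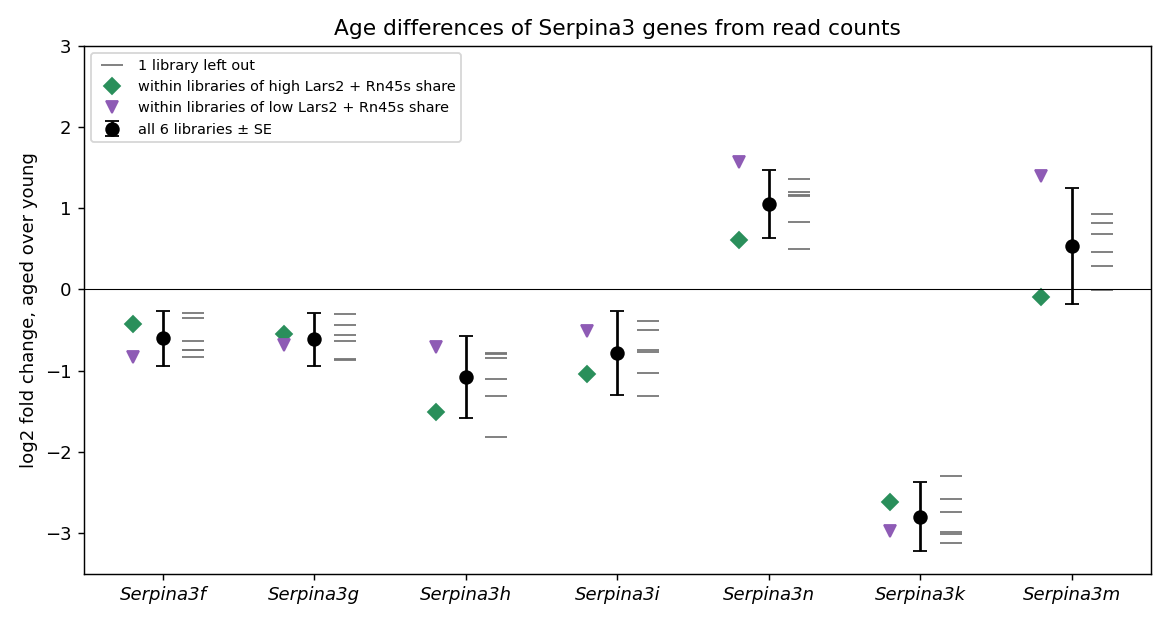
Log2 fold change, aged over young, from read counts for 7 Serpina3 genes (black, all 6 libraries with SE; grey bars, each library left out in turn; diamonds and triangles, differences within libraries of high and low Lars2 and Rn45s share). Serpina3k stayed between -3.12 and -2.29 when libraries were left out, whereas Serpina3n fell to 0.50 and Serpina3m to -0.0056 without the 127-week library.

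Ratios within a library remove the level that the genes of one library share. The ratio of Serpina3f to Serpina3g was 31.4%, 30.2% and 30.6% of FPKM in the young samples, although the 2 genes themselves varied more than 2-fold over the same samples. In the aged samples it was 27.6%, 26.2% and 39.9%, a wider range that held the young values. Serpina3n stood at 5.31%, 6.24% and 4.11% of the FPKM of Serpina3g in the young samples and at 19.97%, 17.95% and 9.20% in the aged samples, without overlap. At 136 weeks Serpina3n, at 22.99 FPKM, lay within its young range, and Serpina3g, at 249.9 FPKM, lay below all young samples. Both genes were chosen on the age contrast and their means differ in opposite directions, so nothing is read from the separation of their ratio. The ratio of Serpina3k to Serpina3g differed in the opposite direction, at 9.34%, 5.87% and 9.45% in the young and 1.92%, 2.21% and 1.34% in the aged samples. Nothing is read from that separation either.

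**Figure D4:**
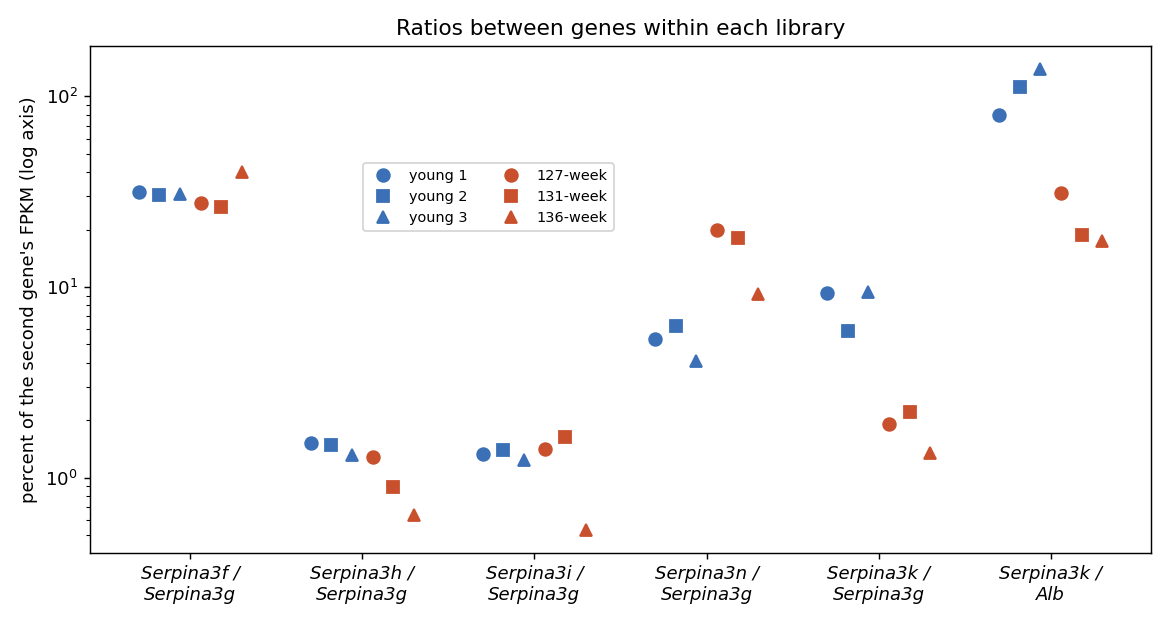
FPKM of one gene as a percent of that of another in the same library, on a log axis (blue, young 1 to 3; red, 127-, 131- and 136-week). Serpina3f to Serpina3g was 30.2% to 31.4% in the young samples. The ratios of Serpina3h, Serpina3n and Serpina3k to Serpina3g and of Serpina3k to Alb did not overlap between the ages. The Serpina3 genes were chosen on the age contrast, so nothing is read from these separations.

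Since Serpina3k is a hepatocyte gene, it was set beside a list of 20 hepatocyte markers, of which 19 entered the edgeR test. Of these, 17 had a negative log2 fold change, 0 passed the adjusted threshold, 5 passed the unadjusted one as lower, DESeq2 called 4 as lower, and the median was -0.84. Alb, the serum albumin gene, was at 59.2, 40.2 and 74.7 CPM in the young and 42.3, 45.7 and 36.5 CPM in the aged samples, with a log2 fold change of -0.48 (SE 0.23). Mup3, a major urinary protein gene, was at 26.4, 19.7 and 26.4 CPM against 3.09, 4.12 and 5.28 CPM, with a log2 fold change of -2.54 (SE 0.26), an edgeR adjusted p of 0.0735 that was the smallest of all genes, and no overlap. The summed list stood at 325.2 to 430.7 CPM in the young and 240.3 to 366.3 CPM in the aged samples, which overlapped. Transferrin (Trf) was the largest part of it, at 172.1, 135.4 and 115.9 CPM in the young and 184.7, 105.4 and 243.2 CPM in the aged samples. Without Trf, left out after the data were seen, the sum was 258.6, 189.8 and 271.8 CPM in the young and 151.6, 134.9 and 123.1 CPM in the aged samples, and the groups did not overlap. Among the 19, only Cps1, at 9.15, 5.10 and 0.252 CPM against 0.103, 0.739 and 0.609 CPM, had a log2 fold change below that of Serpina3k. As a percent of the FPKM of Alb, Serpina3k was at 79.5%, 111.4% and 138.9% in the young and 30.9%, 18.6% and 17.5% in the aged samples. The part of hepatocyte RNA in the level of Serpina3k was not tested.

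The Serpina1 genes, which encode alpha-1 antitrypsin in hepatocytes and lie on the same chromosome, were compared as well. Of 13 listed clade A neighbours, 8 entered the test, 7 had a negative log2 fold change, 0 passed the edgeR adjusted threshold and 5 passed the unadjusted one as lower, which DESeq2 also called, with a median of -1.22. The 5 were Serpina1a to Serpina1e, and all aged samples were below the young in each. Serpina1e was at 31.7, 28.3 and 28.7 CPM in the young and 10.1, 5.29 and 4.51 CPM in the aged samples, a log2 fold change of -2.16 (SE 0.32). The ratio of Serpina3k to Serpina1e was 94.0%, 100.5% and 228.9% of FPKM in the young and 82.2%, 102.0% and 92.6% in the aged samples, and it overlapped.

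**Figure D5:**
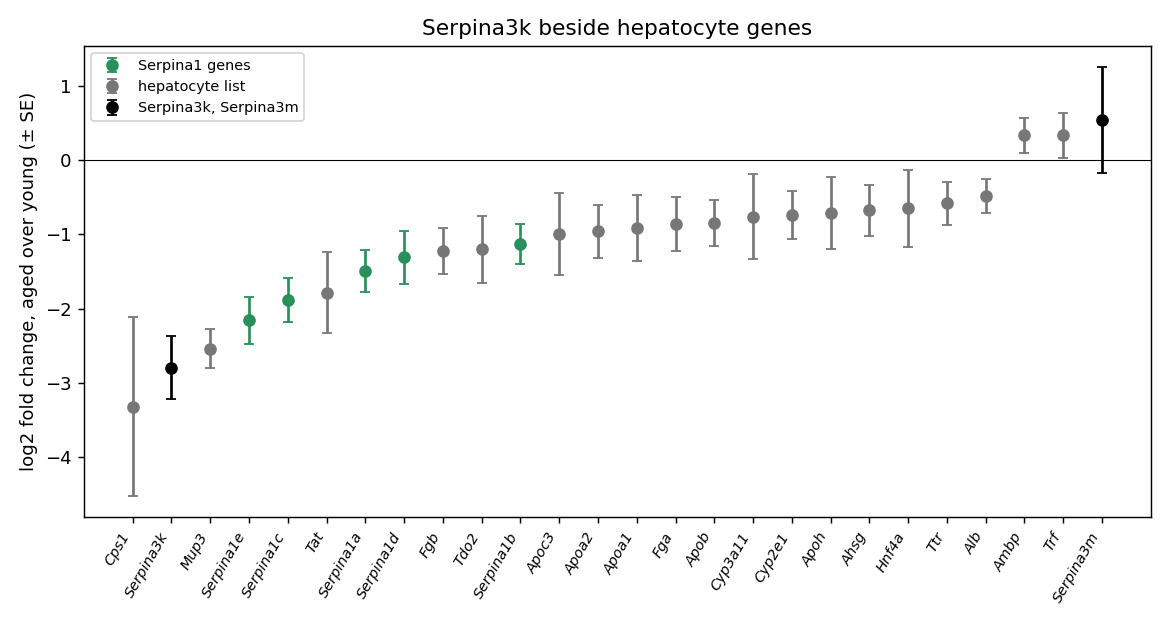
Log2 fold change, aged over young, with SE for Serpina3k and Serpina3m (black), 5 Serpina1 genes (green) and 19 hepatocyte markers (grey), ordered by value. Serpina3k, at -2.80, lay beside Mup3 at -2.54 and Serpina1e at -2.16, while Alb was at -0.48 and Serpina3m at 0.54.

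The proteases that these serpins can inhibit were measured in the same libraries. Of 18 listed, 14 entered the test, 10 had a positive log2 fold change, 0 passed the edgeR adjusted threshold, 4 passed the unadjusted one as higher and 1 as lower, and DESeq2 called 2 as higher and 1 as lower. Their median was 1.23. Granzyme B (Gzmb), a target of Serpina3n, was at 0.558, 0.587 and 2.37 CPM in the young and 6.05, 0.389 and 16.6 CPM in the aged samples, which overlapped, and it did not pass the unadjusted threshold. Cathepsin G (Ctsg) was at most 0.162 CPM and did not enter the test, and neutrophil elastase (Elane) was at most 0.812 CPM. Gzma, Gzmb, Elane and Prtn3, proteases of lymphocyte and neutrophil granules, all had their highest value in the 136-week library, which was also highest for the leukocyte list; these genes were named after their values were seen. Ctsb and Ctsl, lysosomal cysteine cathepsins, were the most abundant. Ctsb was at 2064, 2403 and 2268 CPM in the young and 1743, 2134 and 2130 CPM in the aged samples, with a log2 fold change of -0.17 (SE 0.18). Ctsl was at 1236, 1397 and 1796 CPM against 672.9, 1019 and 646.3 CPM, with a log2 fold change of -0.92 (SE 0.25) and no overlap. Ctss, the cathepsin S of antigen-presenting cells, was at 9.75, 8.30 and 11.99 CPM against 21.4, 8.71 and 65.5 CPM, and its highest value also stood in the 136-week library. Plat, tissue plasminogen activator, was at 49.8, 39.9 and 41.2 CPM against 113.9, 112.6 and 254.3 CPM, with a log2 fold change of 1.88 (SE 0.34) and no overlap.

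Genes of the pathways known to induce Serpina3g and Serpina3n did not share one direction. Of 22 interferon-gamma genes, all tested, 19 had a positive log2 fold change with a median of 0.49, 0 passed the edgeR adjusted threshold, 4 passed the unadjusted one as higher, and DESeq2 called 3. Irf1, an interferon-induced transcription factor, was at 599.0, 629.3 and 1006 CPM in the young and 1882, 1446 and 2935 CPM in the aged samples, with no overlap. Cxcl10, an interferon-induced chemokine, was at 173.4, 177.6 and 565.6 CPM against 850.9, 550.2 and 1484 CPM. In the young group Irf1, Cxcl10 and Serpina3g were all highest in sample 3. In the aged group Irf1 and Cxcl10 were highest in the 136-week library and Serpina3g in the 127-week library.

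The list of 25 STAT3, interleukin-1 and acute-phase genes held receptors and signalling genes as well as acute-phase genes. Of the 25, 24 were tested, 12 had a positive and 12 a negative log2 fold change, and the median was -0.054. Of these 0 passed the edgeR adjusted threshold, 3 passed the unadjusted one as higher and 1 as lower, and DESeq2 called 1 as higher. Socs3, a feedback inhibitor of STAT3 signalling, was at 868.4, 1025 and 939.5 CPM in the young and 1256, 1795 and 2682 CPM in the aged samples, with no overlap. Lcn2, which encodes the acute-phase protein lipocalin, was at 34.1, 50.4 and 33.5 CPM against 119.7, 32.1 and 170.2 CPM. Socs3 and Lcn2 were highest in the 136-week library, the one in which Serpina3n was lowest among the aged. Il1r1, an interleukin-1 receptor gene of the same list, stood at 201.2, 98.0 and 58.2 CPM in the 127-, 131- and 136-week samples. That is the order of Serpina3n, and Il1r1 was named after its values were seen. The part of these pathways in the level of Serpina3n was not tested. Of 8 glucocorticoid pathway genes, among them the receptor gene Nr3c1 at -0.034, 7 had a negative log2 fold change with a median of -0.48. Of the 8, 0 passed the edgeR adjusted threshold and 1 the unadjusted one, Tsc22d3, and DESeq2 called 1 as lower. Tsc22d3, a glucocorticoid-induced leucine zipper gene, was at 417.9, 607.1 and 509.5 CPM against 197.5, 333.2 and 225.3 CPM.

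The marker lists of other cells were read beside the members. All 13 leukocyte markers had a positive log2 fold change with a median of 2.04, 0 passed the edgeR adjusted threshold, 8 the unadjusted one as higher, and DESeq2 called 4. Among the aged samples Serpina3n was highest in the 127-week and lowest in the 136-week library, whereas the leukocyte sum was highest in the 136-week library. At 127 weeks the leukocyte sum, 253.2 CPM, was above all young samples, at 105.2 to 156.4 CPM, as Serpina3n was. At 131 weeks, at 130.6 CPM, the sum lay within the young range, while Serpina3n was above its own. Fcer1g was the largest part of the sum at 131 weeks, at 91.7 CPM, and in the young samples, at 86.7, 65.9 and 62.7 CPM. Its log2 fold change was 0.017, so the place of the 131-week sum rests mostly on this gene. The 10 stellate and mural markers summed to 515.6, 430.7 and 153.0 CPM in the young and 464.8, 239.8 and 754.9 CPM in the aged samples, with 5 log2 fold changes of either sign, and DESeq2 called 1 as lower. For the endothelial list 8 of 10 log2 fold changes were negative, with a median of -0.52, 2 passed the unadjusted threshold as lower, DESeq2 called the same number, and 0 passed the edgeR adjusted one. What part these lists have in the values of the Serpina3 genes was not tested.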

How the data were processed

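Per the labels and the study's methods, 75-base single-end reads were mapped to mm9 with TopHat2 2.1.0 after base calling with CASAVA 1.8.2, and the authors deposited 2 tables, raw read counts for 24421 gene symbols and FPKM values from Cuffnorm 2.2.1 for 24346. The program that made the counts, its treatment of strand and of reads that fit several genes are not given in the sources used here. Counts as deposited were tested with edgeR 4.0.16 (R 4.3.3, TMM factors, glmQLFTest, Benjamini-Hochberg adjustment) over 14612 genes with at least 0.5 CPM in at least 1 library. DESeq2 1.42.0 and limma 3.58.1 served as alternatives. The edgeR and DESeq2 fits were also run on data simulated with the spread that edgeR fitted. There DESeq2 made more false calls, and edgeR missed more of the simulated 4-fold changes. FPKM served to compare levels between genes and CPM to compare ages. Total counts of 23001556 to 31651817 per library set the precision. A pair of symbols altered by spreadsheet software occurred more than once in the table and were not members. Genomic positions come from GENCODE M1 on mm9, and promoters from RefSeq on GRCm38. Named genes were all Serpina3 rows, per list up to 4 genes of highest mean FPKM and those past the unadjusted threshold of p and fold, of which examples are given, and for each member with a mean of at least 1 CPM the 3 genes nearest by Pearson correlation. The members, gene lists and sequence windows were chosen with earlier results of these data known.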

Additional observations from a re-analysis of the deposited data

How the results depend on the processing

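The count of Serpina3 genes past the adjusted threshold was 0 with edgeR, with other scalings, filters, limma fits and each library left out (0 to 0). In those settings 0 to 15 of all genes passed. It was 1, Serpina3k, with DESeq2, which called 474 of 14612 genes. It was also 1, Serpina3k, with a term for the share of Lars2 and Rn45s, where 2 of 14612 genes passed. Without the 127-week library the log2 fold change of Serpina3m reversed to -0.0056. When each library was left out, log2 fold changes ranged from -0.83 to -0.29 for Serpina3f, from -0.87 to -0.30 for Serpina3g, from -1.81 to -0.78 for Serpina3h, from -1.32 to -0.39 for Serpina3i, from -3.12 to -2.29 for Serpina3k, from -0.0056 to 0.93 for Serpina3m and from 0.50 to 1.36 for Serpina3n. Serpina3m was not tested where 0.5 CPM was required in at least 3 libraries. The median share of a gene's stretches found in a paralog was 9.45% for 75 bases, 18.4% for 50 bases and, as an alternative chosen after seeing the data, 27.9% for 75 bases with up to 2 mismatches. No paired analysis was possible because the 2 ages share no replicate numbers in the labels. Serpina3m had at most 29 counts in a library, the fewest of the 7 Serpina3 genes that were tested.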

Other observations

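The genes whose log2(CPM + 1) followed each Serpina3 gene most closely over the 6 libraries were not other members of the cluster. For Serpina3g the nearest were Pdcd6 (Pearson r 0.984), Naa35 (0.980) and 4931414P19Rik (0.978), for Serpina3f Ckap2l (0.992), for Serpina3h Ccnd3 (0.999), for Serpina3i Ccdc93 (0.997), for Serpina3n Rita1 (0.988), and for Serpina3k Dctn5 (0.993), Sel1l (0.988) and Erp29 (0.983). Each is the closest of all genes compared over 6 points that share library depth and age, and the values are a description.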
